A study of Arabidopsis thaliana with 18 samples.

Results

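The arrays described here are the 6 of wild-type (wt) Arabidopsis thaliana suspension cells, 3 taken 12 h after estrogen was added and 3 taken at 0 h, out of 18 arrays in the study. They were chosen by their titles alone, so no measured value decided which arrays belong. The study used estrogen to switch on the transcription factors VND6 or SND1, each under an estrogen-inducible construct in a transformed cell line, and the wt cells are its cells without such a construct. Total RNA was hybridised to Affymetrix ATH1 arrays as biotin-labelled cRNA. The wt cells at 12 h had been given 2 µM estrogen and had then been cultured for 12 h. The wt cells at 0 h were sampled as the hormone was added. The 12 h and the 0 h arrays of the VND6 line (6 arrays) and of the SND1 line (6 arrays) had the same treatment and serve below for comparison only. No array of cells kept for 12 h without estrogen was analysed here, so estrogen and 12 h of culture cannot be told apart. The labels give neither the medium, the age of the cultures nor whether fresh medium was added, and they do not say that the replicates were separate cultures, so a p-value here reflects the scatter of these arrays, which may be no more than technical.

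Plant cells in suspension alternate between growth, when sugar and nitrogen are plentiful, and survival on their own reserves when these run out. Growing cells spend much of their effort on ribosomes: RNA polymerase I transcribes the ribosomal RNA in the nucleolus, assembly factors process it, and ribosomal proteins are added to it. The SnRK1 protein kinase is active in sugar-starved plant cells, where genes for the breakdown of amino acids, starch and lipids rise and autophagy carries cytoplasm to the vacuole. The TOR kinase acts in the opposite state and promotes ribosome production and the cell cycle. These are textbook facts and not results of these arrays.

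Signals below are the deposited values of 1 probe set per gene and are given for replicates 1, 2 and 3 in that order. Changes are log2 differences, 12 h minus 0 h, of the signal plus a constant of 4.32, each with the standard error (SE) of the limma fit after the sign ±. A gene passed when its Benjamini-Hochberg adjusted p of the limma test, taken over 15715 tested probe sets, was under 0.05. In wt cells 54.1% of the tested probe sets passed, 32.1% as higher and 22.0% as lower at 12 h, and on 59.3% of them the arrays of the groups did not overlap. Among the 8738 genes represented by 1 probe set the shares were 53.4% in all, 32.7% higher and 20.6% lower. Every count below has to be read against these shares. The gene lists were chosen with earlier results of these data known, so their counts are descriptions and not independent support. The median change of all tested probe sets was 0.20, and quantile normalization, which gave 0.08, moved it by -0.12. The authors' scaling sets all arrays to 1 trimmed mean, so a change is relative to the bulk of the transcripts on an array. In such bulk samples, fewer cells of a type and less RNA per cell cannot be told apart.

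Genes for the ribosome rose together. Of 170 tested genes for cytosolic ribosomal proteins and for their assembly, 166 were higher at 12 h and 0 were lower, and on 167 the arrays did not overlap. The limma test found none lower at an unadjusted p under 0.05 either. Their median change was 2.21, against 0.20 for all tested probe sets. Most of these genes carry no symbol in the annotation used here, so they were placed on the lists by locus code from general knowledge of Arabidopsis, and only members with a symbol are described singly.

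Among 45 tested genes for proteins of the small ribosomal subunit, 43 rose and the remaining 2 did not pass, with a median change of 2.02. The median signal of the 45 was 13684, 13428 and 12718 at 12 h, against 2067, 2461 and 2509 at 0 h, each array at 12 h above each array at 0 h. Among 82 tested genes for the large subunit, 80 rose and 2 did not pass, with a median of 2.07. Their median signal was 12998, 12849 and 12237 at 12 h, against 2338, 2879.8 and 2861 at 0 h. The spread within the lists was wide: changes ran between 0.18 and 6.25 in the small-subunit list and between 0.46 and 5.29 in the large-subunit list. PGY1, a large-subunit protein known from leaf polarity mutants, had signals of 4243, 6179.6 and 6334 at 12 h, against 726, 1528 and 1599 at 0 h. Its arrays did not overlap, and its change was 2.18 ± 0.26 (adjusted p = 2.96e-06).

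**Figure D1:**
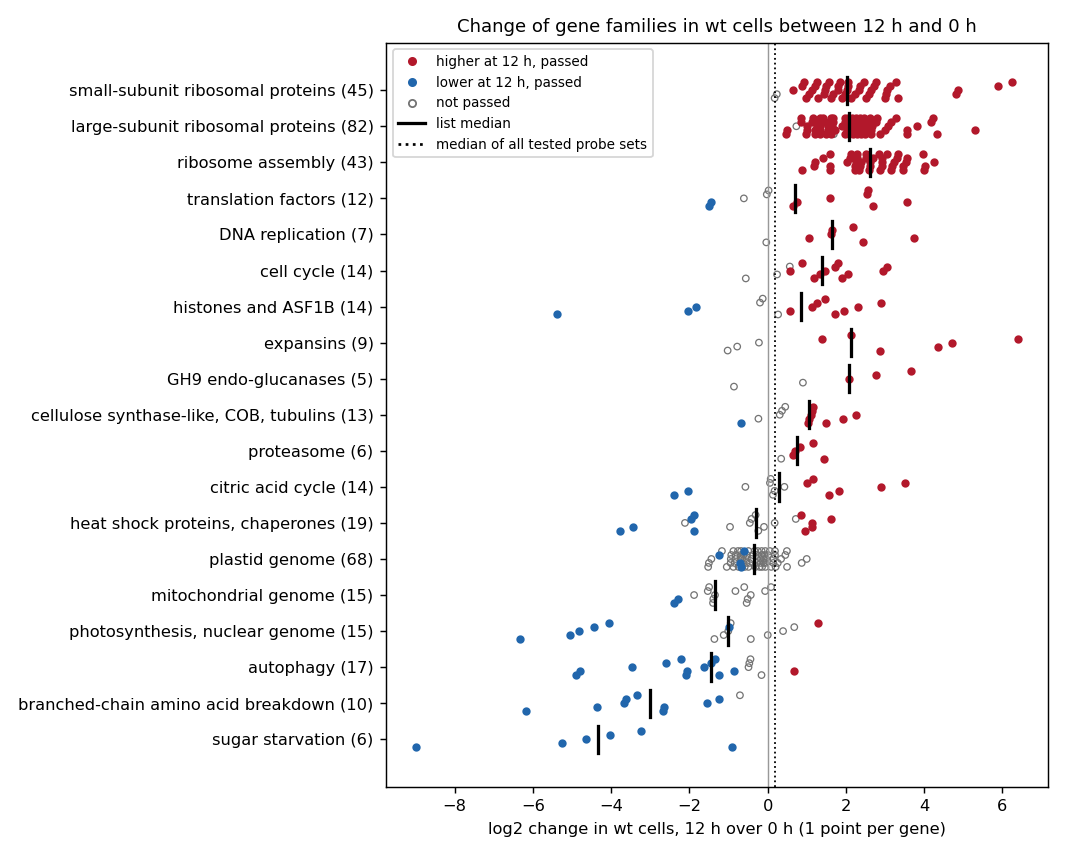
Log2 change of each gene in wt cells, 12 h over 0 h, by gene list, with the number of tested genes in brackets; filled points passed at an adjusted p under 0.05 and the bar is the list median. The medians of the ribosomal lists (2.02, 2.07 and 2.62) are to the right of the dotted median of all tested probe sets (0.20), and those of the starvation, amino acid breakdown and autophagy lists (-4.34, -3.01 and -1.46) to its left, while single genes of the small-subunit and autophagy lists lie on the other side.

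Factors that build ribosomes rose with the ribosomal proteins. All 43 tested genes of ribosome assembly and of RNA polymerase I passed as higher, with a median of 2.62, and all 43 kept the call when any 1 wt array was left out. NRPA1, the largest subunit of RNA polymerase I, had signals of 3025, 1863 and 1683 at 12 h, against 165, 342 and 279.8 at 0 h. NRPA2, the second-largest subunit, had signals of 4588, 2962 and 3326 at 12 h, against 643, 609 and 620.4 at 0 h. In both genes each 12 h array was above each 0 h array, and the changes were 3.05 ± 0.37 (adjusted p = 3.66e-06) for NRPA1 and 2.50 ± 0.29 (adjusted p = 2.58e-06) for NRPA2.

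RBL (REBELOTE), a nucleolar protein known from the control of floral stem cells, had signals of 3613, 3170.1 and 3130.4 at 12 h, against 174, 226 and 219 at 0 h. The 3 arrays of each time lay close together and far from the other time, and the change was 3.98 ± 0.20 (adjusted p = 4.61e-10). YAO, a nucleolar WD-repeat protein needed for embryo and gametophyte development, had signals of 6401, 6917 and 6831 at 12 h, against 292, 873 and 887 at 0 h, with the 0 h array of replicate 1 the lowest of all. Its change was 3.45 ± 0.35 (adjusted p = 5.12e-07). PES, the plant homologue of pescadillo, which matures the large subunit, had signals of 11275, 11792 and 10771 at 12 h, against 1666, 2696 and 2859 at 0 h, with no overlap and a change of 2.27 ± 0.21 (adjusted p = 2.62e-07).

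Further members rose by less. The RNA exosome subunit RRP41 changed by 2.22 ± 0.21 (adjusted p = 2.64e-07), the nucleolar RNA helicase PRH75 by 1.60 ± 0.22 (adjusted p = 1.64e-05), the U3 ribonucleoprotein component IMP4 by 1.60 ± 0.24 (adjusted p = 4.14e-05), and DIM1A, which methylates ribosomal RNA, by 0.89 ± 0.22 (adjusted p = 0.00241). DIM1A had signals of 1651, 1871 and 1950.4 at 12 h, against 730.5, 1156 and 1119 at 0 h, so its groups did not overlap although the change was below 1 on the log2 scale.

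Genes for translation itself moved less evenly. Of 12 tested initiation and elongation factors, 7 rose and 2 fell, with a median of 0.69. EIF4A-2, an RNA helicase that unwinds the start of messenger RNAs, had signals of 15898, 14916 and 13351 at 12 h, against 3869.8, 1974 and 2044 at 0 h, and its change was 2.55 ± 0.21 (adjusted p = 5.63e-08). No 12 h array came near the 0 h arrays. Of 6 tested proteasome subunits 5 rose, with a median of 0.76. RPN12a, a subunit of the proteasome's regulatory particle, had signals of 4727, 5516 and 5963 at 12 h, against 1660.0, 2698 and 3124 at 0 h, and changed by 1.16 ± 0.20 (adjusted p = 0.000133).

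**Figure D2:**
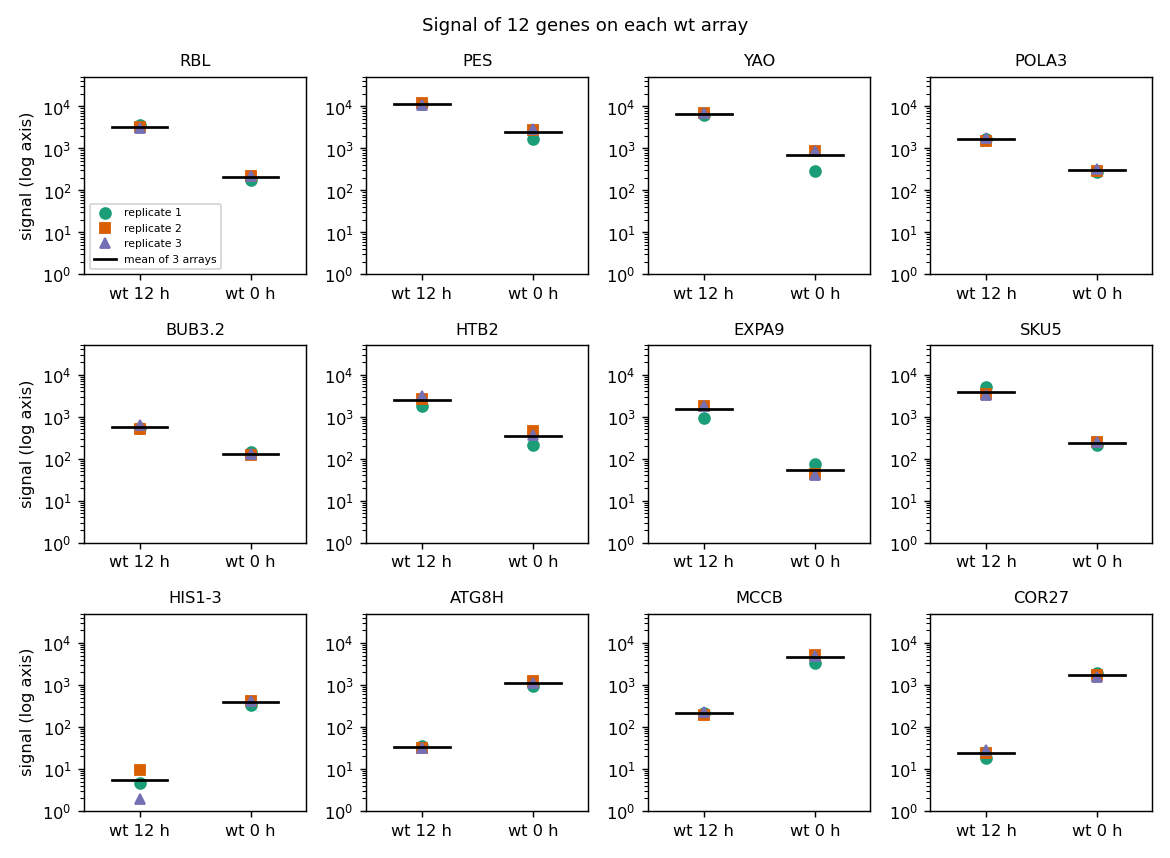
Deposited signal (log axis) of 12 genes on each wt array, 12 h left and 0 h right in each panel, with 1 symbol per replicate and a line at the mean of 3 arrays. In all 12 genes the arrays of the groups do not overlap; RBL has 3130 to 3613 at 12 h and 174 to 226 at 0 h, and ATG8H has 31.6 to 34.2 at 12 h and 927 to 1268 at 0 h.

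Genes of DNA replication rose in wt cells. Of 7 tested genes, 6 rose and none fell, with a median of 1.64, and 6 kept the call when any 1 wt array was left out. POLA3, a primase subunit that starts DNA strands, had signals of 1656, 1545 and 1729 at 12 h, against 274, 295 and 331 at 0 h. The arrays of each time were within a narrow band, and the change was 2.44 ± 0.15 (adjusted p = 3.58e-09). ICU2, the catalytic subunit of DNA polymerase alpha, had signals of 833, 536 and 514 at 12 h, against 86.3, 159.8 and 168 at 0 h, and its change was 2.17 ± 0.33 (adjusted p = 3.86e-05). Replicate 1 was highest at 12 h and lowest at 0 h in this gene.

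PSF2, part of the GINS complex that opens the replication fork, had signals of 412, 411 and 513 at 12 h, against 85.9, 185 and 170.4 at 0 h, and its change was 1.64 ± 0.26 (adjusted p = 6.84e-05). POLD3, a subunit of DNA polymerase delta, had signals of 777, 1149.9 and 1001 at 12 h, against 127, 403 and 571 at 0 h. Its 0 h array of replicate 1 was the lowest, its change was 1.63 ± 0.44 (adjusted p = 0.00501), and without that array the change was 1.0 (adjusted p = 0.0229). MCM7, a subunit of the replicative helicase and the only listed marker of dividing cells among 14 that the named probe sets cover, summed to between 877 and 1261 at 12 h, against between 48.3 and 94.8 at 0 h.

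Of 14 tested genes of the cell cycle and mitosis, 11 rose and none fell, with a median of 1.40. With the filter on dim probe sets at the 60th percentile 7 genes were called higher, a count that leaves out any genes this filter removed. The calls of AUR3, an Aurora kinase, HBT, a subunit of the anaphase-promoting complex, and the mitotic chromosome protein 3xHMG-box2 were each lost without the 12 h array of replicate 1 (adjusted p of 0.1, 0.0659 and 0.0994) and without other single wt arrays. The spindle checkpoint protein BUB3.2 had signals of 538, 518 and 645 at 12 h, against 143, 123 and 131 at 0 h, and its change was 2.06 ± 0.23 (adjusted p = 1.41e-06). Its close relative BUB3.1 had signals of 470.3, 402 and 403 at 12 h, against 83.8, 118 and 134 at 0 h, and its change was 1.91 ± 0.27 (adjusted p = 2.22e-05). In both, every 12 h array was above every 0 h array.

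Haspin, a kinase that marks histone H3 in mitosis, changed by 1.72 ± 0.29 (adjusted p = 0.00012). SAMBA, a regulator of the anaphase-promoting complex, had signals of 942, 962 and 939.7 at 12 h, against 460.4, 366 and 311 at 0 h, and changed by 1.33 ± 0.19 (adjusted p = 2.56e-05). FBL17, an F-box protein that removes inhibitors of cyclin-dependent kinases, had signals of 653, 659 and 683 at 12 h, against 305, 269.6 and 289 at 0 h, and changed by 1.20 ± 0.20 (adjusted p = 9.84e-05). The 3 arrays lay close together at 12 h in both genes, and the groups did not overlap. TOPII, a DNA topoisomerase, was dim, with signals of 127, 119 and 77.2 at 12 h, against 3.80, 4.66 and 27.0 at 0 h, and changed by 3.06 ± 0.65 (adjusted p = 0.000828). SIM, an inhibitor of cyclin-dependent kinases, did not pass (-0.56 ± 0.49, adjusted p = 0.35), with its replicate 1 at 0 h far above the others (1064, 975 and 906 at 12 h, against 2685, 1109 and 1011 at 0 h).

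Histone genes moved both ways. Of 14 tested genes for histones and the chaperone ASF1B, 8 rose and 3 fell, with a median of 0.86. HTB2, a core histone of the H2B family, had signals of 1759.8, 2711 and 3148 at 12 h, against 209, 445 and 368 at 0 h, and changed by 2.91 ± 0.50 (adjusted p = 0.000139). HTB1, of the same family, changed by 1.47 ± 0.20 (adjusted p = 1.3e-05), HTR12, the histone H3 of centromeres, by 1.25 ± 0.29 (adjusted p = 0.00174), and ASF1B, which hands histones to new DNA, by 1.73 ± 0.31 (adjusted p = 0.000177). Other H2B genes did not pass: HTB11 had signals of 1893, 2496 and 2368 at 12 h, against 2608, 1599 and 1536 at 0 h and HTB4 had signals of 6975, 12170.1 and 13066 at 12 h, against 7662, 14272 and 15229.6 at 0 h, with overlapping groups in both.

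The falling members include proteins that bind linker DNA. HIS1-3, a linker histone known to accumulate in drought, had signals of 4.57, 9.68 and 1.97 at 12 h, against 329, 415 and 406 at 0 h. All 12 h arrays were near the floor of the array, and the change was -5.39 ± 0.52 (adjusted p = 3.51e-07). HON4, a protein with a linker histone domain, had signals of 989, 948 and 1021 at 12 h, against 3791, 4075 and 4295 at 0 h, and changed by -2.03 ± 0.18 (adjusted p = 1.4e-07).

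Most of the tested genes that loosen and extend the primary wall rose. Of 9 tested expansins, proteins that let wall polymers slide, 6 rose and none fell, with a median of 2.14, and 6 kept the call when any 1 wt array was left out. A further 9 expansins on the array were too dim to be tested. EXPA9 had signals of 935, 1822 and 1796 at 12 h, against 75.7, 42.1 and 40.8 at 0 h, and changed by 4.72 ± 0.46 (adjusted p = 3.32e-07). EXPA8 had signals of 219, 158 and 188 at 12 h, against 6.24, 5.74 and 3.29 at 0 h, and changed by 4.36 ± 0.51 (adjusted p = 2.62e-06). In both genes each 12 h array was far above each 0 h array.

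EXPA20 had signals of 376, 599.8 and 420.0 at 12 h, against 66.7, 130.3 and 115 at 0 h, EXPA15 had signals of 185, 216 and 206 at 12 h, against 80.2, 84.5 and 61.7 at 0 h, and the expansin-like EXLA2 had signals of 552, 322 and 298 at 12 h, against 30.2, 62.5 and 56.9 at 0 h. No group overlapped, and the changes were 2.14 ± 0.35 (adjusted p = 8.23e-05) for EXPA20, 1.38 ± 0.31 (adjusted p = 0.00121) for EXPA15 and 2.87 ± 0.59 (adjusted p = 0.000631) for EXLA2. The expansin-like genes EXLA1 (3432, 944 and 1023 at 12 h, against 3061, 1314 and 1312 at 0 h) and EXLA3 (64.5, 4.39 and 1.34 at 12 h, against 80.4, 22.3 and 3.27 at 0 h) and the beta-expansin EXPB2 (53.8, 17.2 and 14.1 at 12 h, against 84.9, 35.5 and 50.05 at 0 h) did not pass, and their groups overlapped.

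Of 4 tested xyloglucan endotransglucosylases, which cut and rejoin the tethers between cellulose fibrils, 3 rose. A further 6 genes of this list on the array were too dim to be tested. XTH33 had signals of 2390.2, 732 and 807 at 12 h, against 113, 51.2 and 45.6 at 0 h, and changed by 4.04 ± 0.50 (adjusted p = 5.11e-06). XTH19 had signals of 673, 237 and 234 at 12 h, against 22.9, 5.70 and 39.4 at 0 h, and changed by 3.89 ± 0.81 (adjusted p = 0.000677). Replicate 1 was highest at 12 h in both. EXGT-A3 had signals of 3409, 1895 and 2049 at 12 h, against 2351, 555 and 545 at 0 h, overlapping groups, and a change of 1.40 ± 0.46 (adjusted p = 0.0174). Its adjusted p was 0.0764, 0.0887 and 0.0908 without the 12 h array of replicate 1 and the 0 h arrays of replicates 2 and 3, and its change was 2.10 without the 0 h array of replicate 1.

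Of 5 tested endo-glucanases of family GH9, which trim cellulose and related glucans, 3 rose. A further 10 on the array were too dim to be tested. GH9C2 had signals of 486, 896 and 889.6 at 12 h, against 50.7, 47.8 and 63.4 at 0 h, and changed by 3.66 ± 0.27 (adjusted p = 2.08e-08), GH9A3 had signals of 572, 371 and 385 at 12 h, against 87.0, 52.7 and 46.9 at 0 h, and changed by 2.77 ± 0.30 (adjusted p = 1.23e-06), and GH9B7 changed by 2.07 ± 0.32 (adjusted p = 4.7e-05). SKU5, a membrane-anchored wall glycoprotein that steers root growth, had signals of 5190.2, 3438 and 3297 at 12 h, against 212, 257 and 246 at 0 h, with no overlap and a change of 4.01 ± 0.20 (adjusted p = 4.61e-10).

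Among 13 tested genes for cellulose synthase-like proteins, COB and tubulins, 8 rose and 1 fell, with a median of 1.05. The count was 5 higher with replicates 2 and 3 averaged and counted as 1 sample. CSLC5, a xyloglucan backbone synthase, had signals of 211, 149.5 and 135 at 12 h, against 47.3, 38.7 and 34.3 at 0 h, and changed by 1.92 ± 0.36 (adjusted p = 0.000315). The alpha-tubulin TUA6 had signals of 8753, 4544 and 5165 at 12 h, against 3002, 2197 and 2716 at 0 h, and changed by 1.17 ± 0.20 (adjusted p = 0.000135), while TUA1, known from pollen, had signals of 620.4, 733 and 748 at 12 h, against 1045, 1097 and 1245 at 0 h, and changed by -0.69 ± 0.19 (adjusted p = 0.00667).

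Genes known to rise in sugar starvation fell. All 6 tested genes of the list were lower at 12 h, with a median of -4.34, while 22.0% of all tested probe sets were lower. The list was drawn up with earlier results of these data known, so this count describes its members and is not independent support. AMY1, an alpha-amylase that degrades starch, had signals of 34.3, 31.4 and 12.3 at 12 h, against 1082, 1195 and 979 at 0 h, and changed by -5.26 ± 0.46 (adjusted p = 1.21e-07). MGL, which breaks down methionine, had signals of 111, 205 and 140.3 at 12 h, against 3818, 3580.3 and 3998 at 0 h, and changed by -4.65 ± 0.49 (adjusted p = 9.13e-07). AKINBETA1, a regulatory subunit of the SnRK1 kinase, had signals of 244, 221 and 265 at 12 h, against 2584, 2137 and 2265 at 0 h, and changed by -3.24 ± 0.25 (adjusted p = 3.21e-08).

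SFP1, a sugar transporter-like protein known from senescing leaves, had signals of 139.7, 181 and 170.5 at 12 h, against 2107, 3234 and 2999 at 0 h, and changed by -4.04 ± 0.27 (adjusted p = 7.18e-09). In these 4 genes each 12 h array was below each 0 h array. BZIP53, a transcription factor of the low-energy response, fell by less (2786, 1725 and 1449 at 12 h, against 5336, 2857 and 3113 at 0 h), with a change of -0.92 ± 0.24 (adjusted p = 0.00458) and an adjusted p of 0.0644 with replicates 2 and 3 counted as 1 sample.

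Genes for the mitochondrial breakdown of leucine, isoleucine and valine fell. Of 10 tested genes 9 were lower, with a median of -3.01, and all 10 were lower at 12 h in every replicate. MCCA and MCCB are the subunits of methylcrotonyl-CoA carboxylase in leucine breakdown. MCCA had signals of 17.7, 28.1 and 45.1 at 12 h, against 1408, 2955 and 3152 at 0 h, and its change was -6.17 ± 0.46 (adjusted p = 2.23e-08). MCCB had signals of 219.7, 189.6 and 226 at 12 h, against 3314, 5260.1 and 4982 at 0 h, and its change was -4.36 ± 0.27 (adjusted p = 3.35e-09).

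IVD, the isovaleryl-CoA dehydrogenase upstream of that step, had signals of 474, 1060.5 and 1111 at 12 h, against 8092, 12118 and 12267 at 0 h, and changed by -3.68 ± 0.30 (adjusted p = 5.11e-08). Electrons of such reactions pass through the electron transfer flavoprotein to ETFQO, which had signals of 218, 280.1 and 206 at 12 h, against 1668, 2891 and 2801 at 0 h, and changed by -3.33 ± 0.28 (adjusted p = 8.73e-08). The flavoprotein's subunit ETFALPHA changed by -1.25 ± 0.24 (adjusted p = 0.000297). The other subunit, ETFBETA, had signals of 167, 119 and 162 at 12 h, against 329.7, 217 and 202 at 0 h and did not pass (adjusted p = 0.098). D2HGDH, a hydroxyglutarate dehydrogenase that feeds the same chain, changed by -3.62 ± 0.31 (adjusted p = 9.33e-08), and ALDH6B2, of valine breakdown, by -2.64 ± 0.25 (adjusted p = 2.62e-07).

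Most of the tested autophagy genes fell with them. Of 17 tested genes 12 were lower and 1 was higher, with a median of -1.46, and 14 had arrays that did not overlap. The list turns on the ATG8 family, small proteins that are attached to a lipid of the growing autophagosome. ATG8H had signals of 34.2, 32.2 and 31.6 at 12 h, against 927, 1268 and 1142 at 0 h, and changed by -4.90 ± 0.42 (adjusted p = 1.05e-07). ATG8E had signals of 126, 217 and 188 at 12 h, against 6839, 4656 and 3759 at 0 h, and changed by -4.80 ± 0.48 (adjusted p = 4.86e-07). ATG8F had signals of 1022, 1355 and 1598 at 12 h, against 13855, 13779 and 16164 at 0 h, and changed by -3.48 ± 0.16 (adjusted p = 2.52e-10).

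In these members each 12 h array was far below each 0 h array. The other falling members changed by less: ATG8A by -2.60 ± 0.24 (adjusted p = 1.76e-07), ATG8I by -2.07 ± 0.16 (adjusted p = 2.42e-08), ATG8C by -1.63 ± 0.18 (adjusted p = 1.08e-06), ATG8B by -1.34 ± 0.37 (adjusted p = 0.00654) and ATG8D by -1.23 ± 0.24 (adjusted p = 0.000385). ATG8G was the exception, with signals of 1030.3, 1122 and 1430.1 at 12 h, against 1081, 673 and 552 at 0 h. Its groups overlapped, its change of 0.68 ± 0.28 (adjusted p = 0.0496) was at the threshold, and its adjusted p was 0.0555 with the replicate number as a block. Leaving out any 1 wt array other than the 0 h array of replicate 1 ended the call, with adjusted p between 0.0506 and 0.206.

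Outside the family, ATG3, the enzyme that conjugates ATG8 to the lipid, had signals of 829, 615 and 709.6 at 12 h, against 2081, 1843 and 1974 at 0 h, and changed by -1.46 ± 0.17 (adjusted p = 2.07e-06). ATG101, a subunit of the ATG1 kinase complex that starts autophagy, had signals of 212, 237 and 231 at 12 h, against 878, 1235 and 1131 at 0 h, and changed by -2.22 ± 0.19 (adjusted p = 1.05e-07). Neither gene's groups overlapped. The 4 tested autophagy genes that did not pass were all outside the ATG8 family. Of 16 tested vacuolar processing enzymes and serine carboxypeptidase-like proteins, 6 rose and 4 fell, with a median of 0.00. Their share of calls was near that of all tested probe sets (54.1%). A further 17 on the array were too dim to be tested. With replicates 2 and 3 averaged, or with the filter at the 60th percentile, 3 of the 16 were higher. The count under that filter leaves out any genes it removed.

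Sugar transporters moved both ways, 4 of 9 tested genes up and 3 down. SFP1, already counted in the sugar starvation list, is among the 3 that fell. A further 12 sugar transporters on the array were too dim to be tested. SWEET16, a carrier of the vacuole membrane, had signals of 83.1, 8.21 and 46.7 at 12 h, against 1032, 1247 and 1102 at 0 h, and changed by -4.88 ± 0.49 (adjusted p = 5.08e-07). SWEET2, a glucose carrier of the same membrane, had signals of 26.4, 40.6 and 31.4 at 12 h, against 747, 662 and 739 at 0 h, and changed by -4.29 ± 0.46 (adjusted p = 9.46e-07). SWEET17, which moves fructose across it, had signals of 467, 441 and 453 at 12 h, against 133, 163 and 133 at 0 h, and changed by 1.64 ± 0.29 (adjusted p = 0.000163), so neighbours in 1 family and 1 membrane had opposite signs.

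SAG29, a SWEET carrier known from senescence, had signals of 1129, 938 and 699.7 at 12 h, against 176, 45.0 and 33.6 at 0 h, and changed by 3.71 ± 0.46 (adjusted p = 5.29e-06). TMT2, a tonoplast sugar importer, changed by 1.31 ± 0.30 (adjusted p = 0.0014). In SAG29 the 0 h array of replicate 1 was the highest of its group, and the groups did not overlap.

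Of 14 tested genes of the citric acid cycle and citrate cleavage, 6 rose and 2 fell, with a median of 0.30, close to that of all tested probe sets. The rising genes were IDH-VI, IDH-V, IDH-III, SDH1-1, SDH1-2 and ACLA-2, which include subunits of isocitrate dehydrogenase, which makes 2-oxoglutarate. IDH-VI had signals of 1221, 1072 and 1433 at 12 h, against 269, 150.0 and 102 at 0 h, and changed by 2.91 ± 0.26 (adjusted p = 1.75e-07), IDH-V had signals of 3397, 3692 and 3691 at 12 h, against 1679.6, 943 and 1128 at 0 h, and changed by 1.56 ± 0.23 (adjusted p = 2.78e-05), and IDH-III had signals of 385, 158 and 122 at 12 h, against 23.8, 3.97 and 19.2 at 0 h, and changed by 3.50 ± 0.60 (adjusted p = 0.000117). ACLA-3, a subunit of the citrate lyase that supplies cytosolic acetyl-CoA, had signals of 647, 463 and 526 at 12 h, against 2108, 2187 and 2426 at 0 h, and changed by -2.04 ± 0.18 (adjusted p = 1.03e-07), while ACLA-1 did not pass (1447, 824 and 1001 at 12 h, against 1605, 936 and 676 at 0 h).

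Alternative dehydrogenases let mitochondria oxidise NADH without pumping protons. On the list of alternative dehydrogenases and oxidases 3 of 5 tested genes rose, with changes between -0.18 and 6.33. NDB2 had signals of 3415, 2029 and 2167 at 12 h, against 587, 761 and 931 at 0 h, and changed by 1.72 ± 0.36 (adjusted p = 0.000672).

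Of 5 tested genes for cold and desiccation proteins 3 fell, with a median of -5.33, and LEA4-5 and COR15B did not pass. COR27, a regulator in cold and circadian responses, had signals of 18.5, 23.6 and 28.6 at 12 h, against 1943, 1688 and 1553 at 0 h, and changed by -5.97 ± 0.29 (adjusted p = 3.77e-10). The dehydrin COR47 had signals of 253, 33.5 and 70.7 at 12 h, against 9998, 2091 and 2259 at 0 h, and changed by -5.33 ± 0.75 (adjusted p = 1.79e-05). The dehydrin LTI30 had signals of 10.3, 3.54 and 1.66 at 12 h, against 4953, 139 and 125 at 0 h, and changed by -5.68 ± 0.96 (adjusted p = 0.000113). Replicate 1 at 0 h was far above replicates 2 and 3 in both dehydrins, and no 12 h array reached any 0 h array.

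Photosynthesis proteins of the nuclear genome fell in 6 of 15 tested genes and rose in 1, with a median of -1.01. LHCB4.1, an antenna protein of photosystem II, had signals of 3.12, 46.7 and 35.1 at 12 h, against 1593, 2099 and 2283 at 0 h, and changed by -6.32 ± 0.51 (adjusted p = 4.77e-08). PSAN, a subunit of photosystem I, had signals of 2.88, 10.9 and 3.92 at 12 h, against 435, 266 and 268 at 0 h, and changed by -5.04 ± 0.55 (adjusted p = 1.21e-06). NdhS, of the chloroplast NADH dehydrogenase-like complex, had signals of 2.48, 2.35 and 1.71 at 12 h, against 206, 163 and 172 at 0 h, and changed by -4.82 ± 0.41 (adjusted p = 9.31e-08).

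PSAN and NdhS were near the floor of the array at 12 h, and no group overlapped in the 3 genes. LIL3:1, a light-harvesting-like protein that binds chlorophyll intermediates, went the other way, with signals of 191, 275 and 250.3 at 12 h, against 92.3, 90.4 and 97.6 at 0 h and a change of 1.30 ± 0.26 (adjusted p = 0.000506). The 4 of 16 mesophyll markers that the named probe sets cover (RCA, LHCB4.1, LHCB4.2 and LHCB4.3) summed to 96.6 to 120.0 at 12 h, against 2309 to 4015 at 0 h. Most of the 0 h sum was RCA and LHCB4.1, the latter already described above. LHCB4.3 had 48.6, 15.5 and 33.0 at 12 h, against 151, 48.7 and 44.8 at 0 h, with overlapping groups. Whether the share of green cells or the RNA per cell differed was not tested.

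Genes of the organelle genomes passed rarely. Of 68 tested plastid genes none rose and 4 fell at 12 h, with a median of -0.36, and 9 fell at an unadjusted p under 0.05 in the limma test. With the replicate number as a block 26 fell, with replicates 2 and 3 only 25 fell, and without the 12 h array of replicate 2 or of replicate 3 the count was 2. The gene atpB, for a subunit of the ATP synthase, had signals of 12906, 10394 and 10279 at 12 h, against 16594, 18163 and 19995 at 0 h, and changed by -0.71 ± 0.24 (adjusted p = 0.0201), with an adjusted p of 0.0622, 0.0641 and 0.0647 without the 12 h arrays of replicates 2 and 3 and the 0 h array of replicate 3. The other called genes were atpE, ndhI and ndhA. The gene ndhA, of the plastid NADH dehydrogenase-like complex, had signals of 1333, 801 and 642 at 12 h, against 2366, 2027 and 1931 at 0 h, and changed by -1.25 ± 0.37 (adjusted p = 0.00855).

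Of 15 tested mitochondrial genes none rose and 2 fell, with a median of -1.35, and 3 fell at an unadjusted p under 0.05. Neither call held when each wt array was left out in turn. The gene nad5, a subunit of complex I, had signals of 931, 146 and 107 at 12 h, against 1749.9, 1205 and 1082 at 0 h. Its adjusted p was 0.0347, and between 0.0548 and 0.147 when any 1 wt array other than the 12 h array of replicate 1 was left out. The adjusted p of nad6 was 0.0189, and 0.0827 and 0.0927 without the 12 h arrays of replicates 2 and 3. The cytochrome oxidase subunit gene cox1 had signals of 7866, 718 and 483 at 12 h, against 15486, 2228 and 1929 at 0 h. Replicate 1 was several times above replicates 2 and 3 at each time, and the change did not pass (-1.53 ± 1.34, adjusted p = 0.352).

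Heat shock proteins and chaperones moved both ways, with 5 of 19 tested genes higher and 5 lower and a median of -0.31. Their share of calls was near that of all tested probe sets (54.1%). With replicates 2 and 3 only 11 were lower, and without the 0 h array of replicate 2 or of replicate 3 the count was 2. Hop1, which links the chaperones Hsp70 and Hsp90, had signals of 1403, 955 and 1208 at 12 h, against 491, 576 and 534 at 0 h, and changed by 1.13 ± 0.18 (adjusted p = 5.9e-05). Its relative Hop3 had signals of 4927, 3123 and 3126 at 12 h, against 4033, 24994 and 27947 at 0 h, and changed by -1.96 ± 0.75 (adjusted p = 0.0374), with replicate 1 apart at 0 h and overlapping groups. Its call was lost without the 12 h or the 0 h array of replicate 2 or 3, with adjusted p between 0.0918 and 0.152.

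Among genes of detoxification, 3 of 26 tested UDP-glycosyltransferases rose and 8 fell, 1 of 8 glutathione transferases rose and 2 fell, and 1 of 7 aldehyde dehydrogenases rose and 4 fell. Under quantile normalization UGT71C1 alone of the UDP-glycosyltransferases was called higher, and 7 of their 11 calls were kept when any 1 wt array was left out. UGT71C1, which glucosylates flavonoids, had signals of 1511, 1005 and 1251 at 12 h, against 272, 69.3 and 72.0 at 0 h, and changed by 3.42 ± 0.42 (adjusted p = 4.08e-06). UGT87A2, known from flowering time, had signals of 575, 965 and 815 at 12 h, against 4788, 4760.1 and 4304 at 0 h, and changed by -2.58 ± 0.20 (adjusted p = 2.73e-08). ALDH7B4, an aldehyde dehydrogenase of drought and salt responses, had signals of 1436, 2858 and 3265 at 12 h, against 17486, 23588 and 23338 at 0 h, and changed by -3.16 ± 0.25 (adjusted p = 3.73e-08).

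Of 6 tested genes for WRKY transcription factors none rose and none fell in the limma test, and 0 rose and 1 fell at an unadjusted p under 0.05. Of 15 bZIP transcription factor genes 3 rose and 4 fell, a share of calls near that of all tested probe sets, and 2 fell with replicates 2 and 3 averaged. BZIP28, which signals stress of the endoplasmic reticulum, had signals of 786, 494 and 519 at 12 h, against 2268, 2712 and 3048 at 0 h, and changed by -2.17 ± 0.23 (adjusted p = 7.99e-07), and bZIP19, a regulator of zinc uptake, had signals of 2274, 1981 and 2019 at 12 h, against 644, 691 and 794 at 0 h, and changed by 1.56 ± 0.16 (adjusted p = 8.84e-07).

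Of 14 tested genes of auxin response and conjugation 2 rose and 3 fell. GH3.17, which joins auxin to amino acids, had signals of 6999, 3552 and 3145 at 12 h, against 1986, 415 and 445 at 0 h, and changed by 2.57 ± 0.45 (adjusted p = 0.000141), with replicate 1 highest at both times. Among 8 tested lignin and xylan genes of xylem and fibre walls, 5 rose in the VND6 line and 5 in the SND1 line. In wt cells 1 rose (HCT, with an adjusted p of 0.0537 and 0.0767 without the 12 h arrays of replicates 2 and 3) and none fell. IRX15, a xylan protein, had signals of 2.50, 3.29 and 1.43 at 12 h, against 2.59, 2.73 and 4.90 at 0 h, all at the floor of the array, and the xylan synthesis gene IRX10 had signals of 152, 113 and 92.1 at 12 h, against 106, 91.9 and 90.9 at 0 h. The 3 of 10 xylem and fibre markers that named probe sets cover (IRX15, PRX72 and SCPL48) summed to 505 to 1436 at 12 h, against 2667 to 8438 at 0 h, nearly all of it SCPL48, with IRX15 and PRX72 at or near the floor on every array. The part of such cells in the changes above was not tested.

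Large falls also occurred outside the lists. DEWAX, a repressor of wax synthesis, had signals of 28.3, 50.7 and 47.0 at 12 h, against 4573, 5071 and 5746 at 0 h, and changed by -6.82 ± 0.63 (adjusted p = 2.05e-07). OSM34, an osmotin-like protein, had signals of 246, 1159.9 and 1293 at 12 h, against 30197, 25656 and 32407 at 0 h, and changed by -5.34 ± 0.41 (adjusted p = 3.57e-08). CCOAMT, a methyltransferase that acts on caffeoyl-CoA, had signals of 48.8, 118 and 139 at 12 h, against 2817, 9091 and 9157 at 0 h, and changed by -5.98 ± 0.42 (adjusted p = 1.18e-08).

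STR18, a sulfurtransferase, had signals of 159.6, 117 and 106 at 12 h, against 7908, 6511 and 6097 at 0 h, and changed by -5.71 ± 0.45 (adjusted p = 3.78e-08). Among the rises, TRM82, named after the yeast partner of a transfer RNA methyltransferase, had signals of 778, 771 and 887 at 12 h, against 51.4, 82.3 and 49.4 at 0 h, and changed by 3.68 ± 0.33 (adjusted p = 1.65e-07). IQD26, a protein with a calmodulin-binding motif, had signals of 329, 240.4 and 249 at 12 h, against 70.2, 5.76 and 3.62 at 0 h, and changed by 3.92 ± 0.64 (adjusted p = 7.84e-05). In these 6 genes the arrays of the groups did not overlap.

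Replicate 1 stood apart from replicates 2 and 3. Across the 15715 tested probe sets, the change in replicate 1 had a Pearson correlation of 0.782 with that in replicate 2 and of 0.783 with that in replicate 3, against 0.934 between replicates 2 and 3. These are descriptions across probe sets, which are not independent. The change in replicate 1 differed from the mean of the other replicates by over 2 on the log2 scale on 7.43% of probe sets, while replicates 2 and 3 differed by that much on 1.79%. The sign was the same on 80.1% of all tested probe sets. A fit of replicates 2 and 3 only, which replicate 1 did not enter, called 10785 probe sets, and replicate 1 had the same sign as those replicates on 88.4% of them and the opposite sign on 1252.

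**Figure D3:**
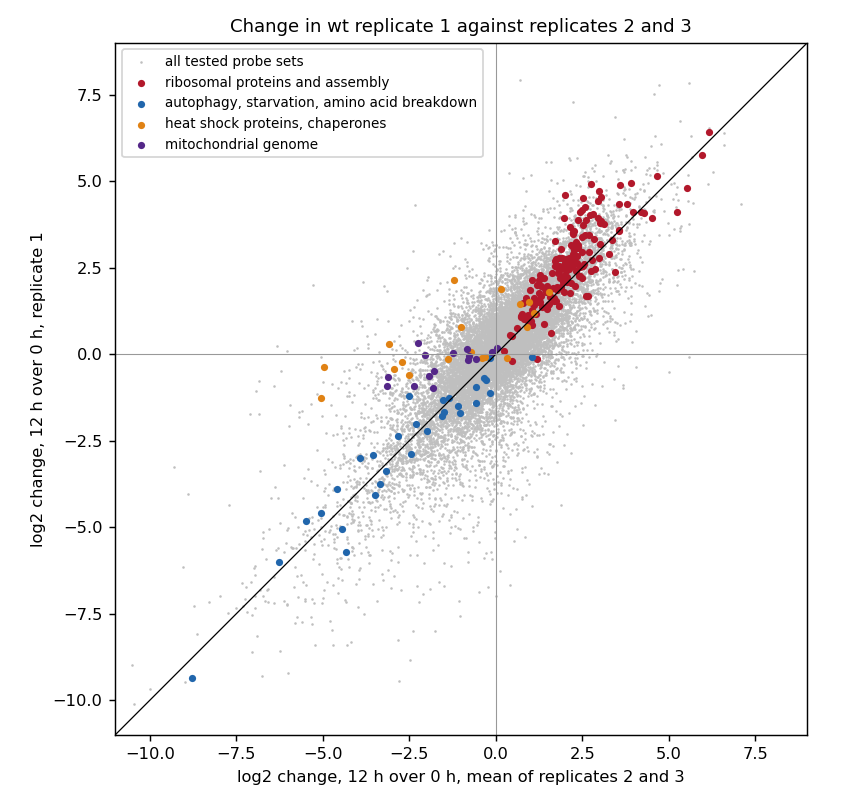
Log2 change, 12 h over 0 h, in wt replicate 1 against the mean change of replicates 2 and 3, for 15715 tested probe sets (grey) and 4 coloured sets of genes, with the line of equality. Ribosomal genes lie mostly above the line on the right, starvation genes follow it on the left, and the heat shock and mitochondrial genes lie above it in the median, with medians of 0.07 and -0.14 in replicate 1.

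The lists differed in how close replicate 1 lay to the others. The sugar starvation list had medians of -4.35, -4.11 and -4.45 in replicates 1, 2 and 3, the amino acid breakdown list -2.96, -3.06 and -3.18, and the autophagy list -1.42, -1.58 and -1.47. Ribosome assembly had 3.25 in replicate 1 and 2.35 and 2.32 in replicates 2 and 3, and DNA replication had 2.58, 1.5 and 1.57. All 43 assembly genes and 44 of 45 small-subunit genes had the same sign in replicate 1 as in the mean of the others. Heat shock genes had medians of 0.07, -0.59 and -0.85, and mitochondrial genes -0.14, -1.68 and -1.80.

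**Figure D4:**
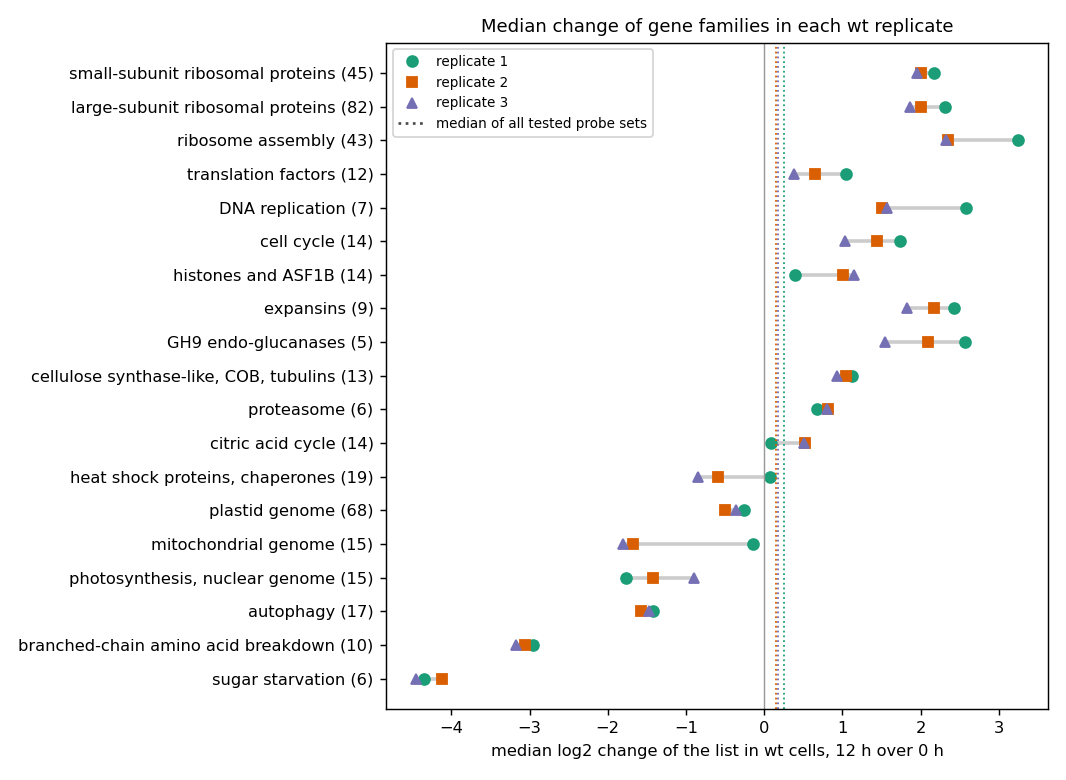
Median log2 change, 12 h over 0 h, of each gene list in wt replicates 1, 2 and 3, with the number of tested genes in brackets and dotted lines at the medians of all tested probe sets (0.26, 0.16 and 0.18). The replicates lie together in the starvation, amino acid breakdown and autophagy lists, and replicate 1 lies apart in the ribosome assembly, DNA replication, heat shock and mitochondrial lists.

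Single genes show where replicate 1 departed. HSA32, a protein needed for long-lasting heat tolerance, had signals of 1461, 517 and 562 at 12 h, against 1906, 15706 and 18050.4 at 0 h: replicate 1 was low at 0 h, where replicates 2 and 3 were high. Its changes were -0.38, -4.91 and -5.00 in replicates 1, 2 and 3, its fitted change was -3.43 ± 0.98 (adjusted p = 0.00711), and its adjusted p was 0.141 with replicates 2 and 3 counted as 1 sample. XTH18, a xyloglucan endotransglucosylase, had signals of 99.998, 139 and 131 at 12 h, against 2197, 83.6 and 48.0 at 0 h; replicate 1 at 0 h was far above every other array, and the change was -0.78 ± 1.39 (adjusted p = 0.661).

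The control probe set for the large ribosomal RNA also set replicate 1 at 0 h apart. It gave 27055, 14067 and 15096 at 12 h, against 3965, 14534 and 17257 at 0 h. The replicate 1 array was the lowest of all at 0 h and the highest of all at 12 h. The ratio of signal at the 3′ end over the 5′ end of the GAPDH transcript was 1.33, 1.57 and 1.37 at 12 h, against 2.14, 1.88 and 1.79 at 0 h, lower on each 12 h array than on each 0 h array. For actin the ratio was 17.7, 19.9 and 16.8 at 12 h, against 18.8, 19.2 and 20.3 at 0 h, with overlapping groups. For ubiquitin it was 2.19, 3.14 and 3.23 at 12 h, against 1.83, 2.00 and 2.56 at 0 h, higher at 12 h in each replicate, the opposite of GAPDH, with overlapping groups. The part of RNA quality or labelling in the changes above was not tested.

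The VND6 and SND1 lines give the same 12 h of estrogen with an inducible gene added, and their responses were set against that of wt cells by the interaction of line and time. The wt response differed from the VND6 response on 13.8% of the tested probe sets and from the SND1 response on 5.87%. These comparisons share the wt arrays. With replicates 2 and 3 averaged and counted as 1 sample, 126 and 62 probe sets passed, against 2174 and 923 with all 3 replicates.

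Ribosomal genes had larger changes in wt cells than in either line. Their median change was 2.21 in wt cells, 1.38 in the VND6 line and 1.46 in the SND1 line, and the change was larger in wt cells than in the VND6 line in 169 of 170 genes and than in the SND1 line in 168, against 60.4% and 60.7% of all tested probe sets. The test of the difference itself passed for 45 of the 170 as larger in wt than in the VND6 line, where 7.99% of all tested probe sets were larger in wt and 5.84% smaller, and for 13 as larger in wt than in the SND1 line, where the shares were 2.4% and 3.47%. None of the 170 passed as smaller in wt in either comparison. With the replicate number as a block the second count was 22. With replicates 2 and 3 averaged, limma called 0 in each comparison, with 41 and 30 at an unadjusted p under 0.05. For the first comparison, leaving out the 12 h array of replicate 1, 2 or 3 of the VND6 line gave 93, 17 and 14 calls, leaving out its 0 h array of replicate 2 gave 24, and leaving out the wt 12 h array of replicate 2 gave 23. For the second, leaving out single arrays gave 6 to 15. The median signal of these genes was 9438 at 12 h and 1894 at 0 h in wt cells, 8142 and 2917 in the VND6 line, and 7348 and 2318 in the SND1 line.

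**Figure D5:**
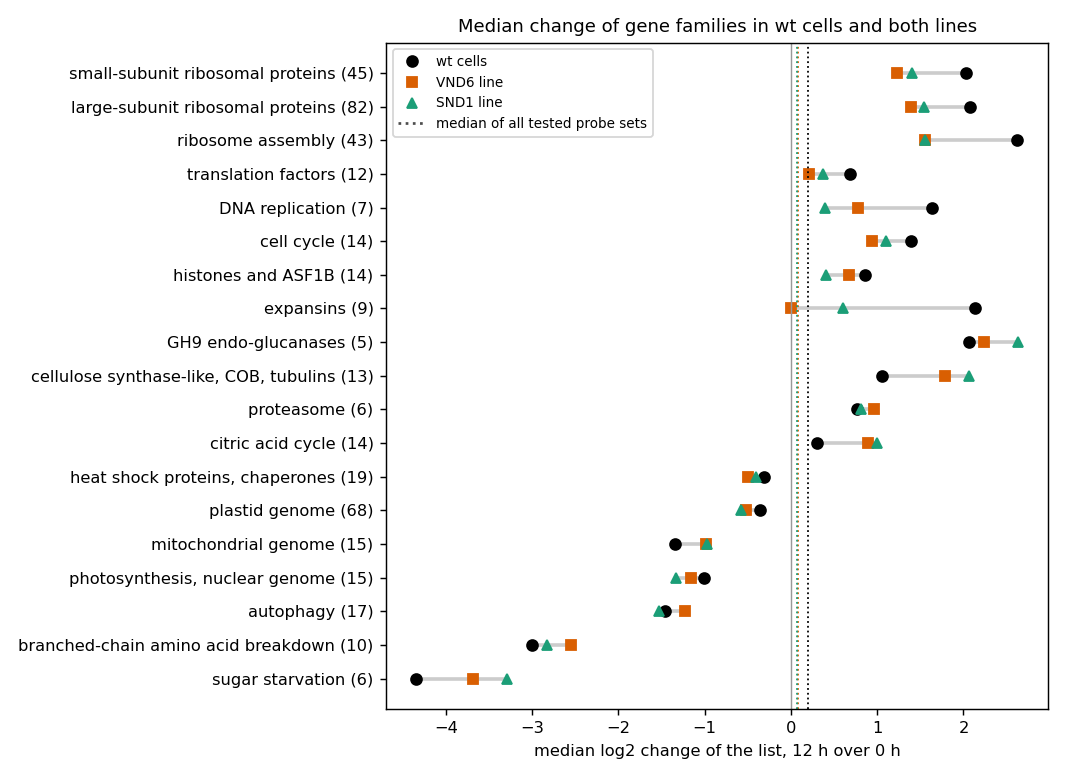
Median log2 change, 12 h over 0 h, of each gene list in wt cells, the VND6 line and the SND1 line, with the number of tested genes in brackets and dotted lines at the medians of all tested probe sets (0.20, 0.08 and 0.08). The wt median is to the right of both lines in the ribosomal, DNA replication and expansin lists. The same order holds in the translation factor, cell cycle, histone, heat shock, plastid and nuclear photosynthesis lists, and for all tested probe sets. The medians of the autophagy and starvation lists are negative in wt cells and in both lines.

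Single genes of DNA replication and the wall differed between wt cells and a line. In POLA3 and ICU2 the difference includes unlike 0 h signals, with the wt signals given above. Every array of the SND1 line was above every wt array at 0 h and below every wt array at 12 h. POLA3 changed by 2.44 in wt cells and by 0.13 in the SND1 line, where it had 892, 1131 and 1038 at 12 h, against 887, 964 and 940.5 at 0 h. The difference of 2.31 passed (adjusted p = 1e-05). ICU2 changed by 2.17 in wt cells and by -0.24 in the SND1 line, with 487, 309 and 337 at 12 h, against 603, 335 and 414 at 0 h there, a difference of 2.41 that passed (adjusted p = 0.00608) but not with replicates 2 and 3 averaged (adjusted p = 0.185). EXPA20 changed by 2.14 in wt cells and by -0.43 in the VND6 line, with 125, 99.0 and 99.3 at 12 h, against 265, 137 and 84.8 at 0 h there, a difference of 2.57 (adjusted p = 0.00343; 0.108 with replicates 2 and 3 averaged).

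The medians of the autophagy and amino acid breakdown lists were negative in wt cells and in both lines. The autophagy list had medians of -1.46 in wt cells, -1.23 in the VND6 line and -1.53 in the SND1 line, and the amino acid breakdown list -3.01, -2.55 and -2.82 in the same order. SWEET16 and AMY1 were chosen for a closer view after their values were seen. Their differences also include unlike 0 h signals. In both genes every array of the line compared was below every wt array at 0 h and above every wt array at 12 h. SWEET16 fell by 4.88 in wt cells and had 345, 599 and 517 at 12 h, against 598, 309 and 406 at 0 h in the VND6 line, a difference of -5.05 (adjusted p = 0.000243). AMY1 fell by 5.26 in wt cells and changed by -0.74 in the SND1 line, with 51.9, 101 and 104 at 12 h, against 266, 121 and 82.6 at 0 h there, a difference of -4.52 (adjusted p = 0.000607; 0.0851 with replicates 2 and 3 averaged).

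Genes used as stable references in quantitative PCR gave a check on the scaling. Of 4 tested genes none rose and 1 fell, with a median of -0.11. AP2M, an adaptor protein subunit, had signals of 1468, 1367 and 1492 at 12 h, against 1720.0, 2124 and 2273 at 0 h, and changed by -0.49 ± 0.19 (adjusted p = 0.0405), a call lost under quantile normalization and when any 1 wt array other than the 0 h array of replicate 1 was left out (adjusted p between 0.0671 and 0.134).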

How the data were processed

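Total RNA of wt cells at 12 h and 0 h, 3 arrays each, was measured on ATH1 arrays. The deposited values are linear intensity values. The submitters' processing notes name GCOS as the software, its version being not given in the sources used here. Trimmed by 2%, array means are all close to 500.05, and array medians are 103 to 133. The labels name 2 labelling kits without tying them to samples.

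Signals were taken as log2(value + 4.32), the added constant being the 10th percentile of the table. Of 22810 probe sets, 64 controls were left out, and 15715 reaching the 40th percentile of their array on at least 3 arrays were tested with limma 3.58.1 (R 4.3.3) on 6 group means over 18 arrays, with an intensity trend and Benjamini-Hochberg adjustment. Alternatives were quantile normalization, other filters and constants, no trend, fewer arrays, replicates 2 and 3 only or averaged, and the replicate number as a block. The numbers were taken to pair the wt arrays, since deviations from the group means of same-numbered arrays correlated at 0.380, 0.255 and 0.278. Replicates 2 and 3 correlated across numbers as well (0.213 and 0.290), so only replicate 1 is set apart from the others. The fit was tested on simulated data. The simulated arrays were independent of one another, so that test did not cover the likeness of replicates 2 and 3.

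A gene is the probe set with the highest mean signal, and 8738 genes with 1 name were tested. Of all 22810 probe sets, 8730 had no gene in the annotation used and 503 were not assigned to 1 gene, so the lists lack members. Of 91 small-subunit and 130 large-subunit loci listed, named probe sets covered 47 and 83. Other list members were too dim to be tested, as were 24 of 50 UDP-glycosyltransferases on the array. Named genes are the 12 largest rises and falls, the 5 smallest adjusted p in each list (all members of lists under 8), up to 3 members per list with replicate 1 farthest from the others, and the 6 largest differences each way between lines; not all are printed, and other members were chosen after their values were seen. Members and lists were chosen with earlier results of these data known. Some genes, such as SFP1 and ALDH6B2, are on more than 1 list, so the counts of different lists are not all of separate genes.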

Additional observations from a re-analysis of the deposited data

Results flagged for a closer look

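The wt response differed from that of the VND6 or the SND1 line, by the limma test of the interaction of line and time, in the genes below, given as the log2 change in wt cells minus that in the line. They are the largest such differences among named genes, together with list members, and were picked by their size. Genes that rose in the VND6 line and not, or less, in wt cells gave negative differences. These are the peroxidase gene PRX72 (-8.31), the carboxylesterase gene CXE20 (-7.14), TBL34, of a family of wall acetyltransferases (-6.12), the carboxypeptidase-like SCPL48 (-5.82) and SCPL20 (-5.54), and the subtilase gene SBTI1.1 (-5.18). CXE20 averaged 28.0 at 12 h and 92.7 at 0 h in wt cells, against 6754 at 12 h and 138 at 0 h in the VND6 line. PRX72 and SCPL48 are on the marker list of xylem and fibre. In wt cells SCPL48 was lower at 12 h, with signals of 1425, 591 and 502, against 8426, 2681 and 2637 at 0 h, so its difference includes that fall.

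In the same comparison, positive differences were found for the calmodulin-binding family member IQD24 (3.46), MSRB9, which repairs oxidised methionine (3.29), FMO, a monooxygenase (2.97), PRN, a pirin (2.92), the expansin-like EXLA2 (2.87) and the glycosyltransferase UGT71C1 (2.74). FMO did not pass in wt cells (adjusted p = 0.115), and its difference comes with a change of -3.93 in the VND6 line. MSRB9 averaged 5832 at 12 h and 1096 at 0 h in wt cells, against 1887 at 12 h and 2578 at 0 h in the VND6 line.

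Against the SND1 line the negative differences were those of IRX15, a xylan protein (-6.57), CXE20 (-6.31), TBL34 (-5.06), the tetraspanin TET13 (-4.96), the glucosidase BGLU46 (-4.94) and AtS40-3 (-4.93). BGLU46 fell in wt cells, by 4.26 on the log2 scale, with mean signals of 137 at 12 h and 2699.7 at 0 h. The positive differences were those of the protein kinase WAG2 (2.90), the replication helicase subunit MCM7 (2.69), the lateral root factor LBD16 (2.54), ICU2 (2.41), POLA3 (2.31) and EXPA20 (2.03). LBD16 averaged 1615 at 12 h and 1557 at 0 h in wt cells, against 342 at 12 h and 1936 at 0 h in the SND1 line. The calls of EXLA2, WAG2, LBD16, IQD24 and EXPA20 were lost under several alternatives, and the cause was not tested.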

How the results depend on the processing

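In place of 8501, 8396 probe sets passed in wt cells under quantile normalization (55.4% of calls higher, against 59.3%), 10785 with replicates 2 and 3 only and 5818 with these averaged, when 2279 were lower, against 3458. Of 4436 values of single genes under the alternatives, 4237 kept their direction and side of the threshold, 138 lost a call, 58 gained one and 3 turned. All 3 turned with replicates 2 and 3 only: AT2G04520 (-0.32), AT1G06760 (0.28) and XTH18 (1.04). Of 520 counts, 464 stayed within 1.5 times the reported one.

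The comparisons with the lines depend on the replicates. With replicates 2 and 3 only, with these averaged and with only the arrays compared, wt minus VND6 gave 7585, 126 and 1049 calls, against 2174, and single arrays left out gave 1099 to 3437. For wt minus SND1 the count of 923 became 5469 without replicate 1, fell to 62 once the other replicates were averaged, and was 463 to 1041 with single arrays left out. Ribosomal genes higher in wt minus VND6 numbered 144, 0 and 16 in place of 45 under the same 3 settings (14 to 93), and in wt minus SND1 112, 0 and 22 in place of 13 (6 to 15), with 8 without the filter or without the trend.

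With the replicate number as a block, which uses the pairing, 26 plastid genes were lower in place of 4. Ribosomal genes higher in wt minus SND1 then numbered 22 in place of 13. No other count that was compared moved by over 1.5 times under the block. Lists were compared only for directions with at least 4 called genes, so smaller counts were not checked this way. Plastid genes lower numbered 25 with replicates 2 and 3 only, 1 with them averaged, 7 with only the arrays compared and 2 to 6 with arrays left out. Heat shock genes lower numbered 11, 1 with averaging and 2 to 7. At the 60th percentile filter 7 cell cycle and 3 vacuolar protease genes were higher, counts that leave out any genes this filter removed. Averaging left 3 vacuolar protease, 5 wall synthesis and tubulin genes higher and 2 bZIP genes lower, which also numbered 2 with only the arrays compared. The cause was not tested. Dim probe sets near the added constant give changes that understate the fold.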
